A study of Mus musculus with 12 samples.

Results

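Neurexins, neuroligins and leucine-rich repeat transmembrane (LRRTM) proteins are cell adhesion molecules that meet across the synaptic cleft, and 9 genes of this system were followed here in the brain of Shank2-mutant and wild-type mice. The genes are Nrxn2 and Nrxn3, which encode presynaptic neurexins, Nlgn1, Nlgn2 and Nlgn3, which encode postsynaptic neuroligins, Lrrtm1, Lrrtm2 and Lrrtm3, and Il1rapl1, which encodes a postsynaptic adhesion protein of the interleukin-1 receptor family. They were picked by symbol and are 9 of the 19312 genes in the deposited table. Each was measured in all 12 mice, and all 9 passed the filter on low values, which required a mean normalized count of at least 10.

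The mice were C57BL/6N males aged postnatal day (P) 25, with 3 mice in each of 4 groups. Knockout (KO) mice were homozygous for a deletion of exons 6 and 7 of Shank2, a scaffold gene of the excitatory postsynaptic density, and wild-type (WT) mice carried no deletion. Memantine, an open-channel blocker of NMDA-type glutamate receptors, was given by mouth at 20 mg/kg 2 times a day from P7 to P21 in the WT-Mem and KO-Mem groups, whereas WT-Veh and KO-Veh mice received the 0.1% saccharin vehicle. Per the labels, a cage held a mother with pups of both genotypes, and tissue was taken 4 days after the last day of dosing. The labels name whole brain, while the methods describe forebrain from which cerebellum and brain stem had been removed.

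Neurexins on the axon bind neuroligins and LRRTMs on the dendrite, and the choice of partner and of splice form helps to set which kind of synapse is built. Neuroligin-1 is found mainly at excitatory synapses, neuroligin-2 mainly at inhibitory synapses, and neuroligin-3 at both. Inside the dendrite, neuroligins and IL1RAPL1 contact PSD-95, which is linked through SAPAP proteins to the Shank scaffold. Mutations of several members are known from autism and intellectual disability.

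The values are normalized counts with no log transformation. In these units 1 read was worth between 0.872 and 1.13 units in the different mice, and members ranged from 441 to 18729 units. Counting error was taken at 1.13 units per read, the largest of the 12 mice. It alone would give a coefficient of variation of 5.06% at the lowest member value and 0.775% at the highest. Shank2 lay between 2706 and 3178 normalized counts in KO mice and between 7156 and 8548 in WT mice, so each mouse matched its genotype label. The summed level of 4 cerebellar markers was 2185 in KO-Veh replicate 3 and between 252 and 443 in the other 11 mice, and 3 of the 4 markers of hindbrain and spinal cord (Hoxa5, Hoxb5 and Hoxb8) were not listed. The remaining marker of that list, Slc6a5, was at 180 in WT-Mem replicate 3, the highest of the 12 mice, at 85.6 in WT-Veh replicate 3, and as low as 12.9. The summed level of 5 oligodendrocyte markers ran from 307190.0 to 383240.0 for WT-Veh and from 275380.0 to 322260.0 for WT-Mem, against 267250.0 to 285720.0 for KO-Veh and 224430.0 to 263730.0 for KO-Mem. Other marker sums also moved with the groups. For 3 genes of oligodendrocyte precursors the sum was 8266 to 9294 in WT against 7210 to 8075 in KO mice, and for 5 blood genes it was 19447 to 26320 in WT-Veh against 5626 to 12528 in KO-Mem mice. For 5 microglial genes it was lowest in KO-Mem mice, at 4235 to 4852 against 5211 to 6346 in the other groups. Their part in the members' values was not tested. In whole tissue, fewer cells of a type and less RNA per cell cannot be told apart.

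Levels of the 9 genes were compared per kilobase of merged exons, since a longer transcript yields more fragments. Nlgn2 was highest, at 1871 ± 128 normalized counts per kilobase (SD, n = 12), followed by Nrxn2 at 1236 ± 88.5 and Lrrtm1 at 828 ± 50.3. Nrxn3 and Nlgn3 came next, at 545 ± 48.8 and 455 ± 25.6, and their ranges over the 12 mice overlapped. Lrrtm2 and Lrrtm3 followed at 353 ± 26.3 and 330 ± 28.2 and overlapped as well, whereas every other pair of neighbours in this order was separated in all mice. Nlgn1, at 159 ± 18.2, and Il1rapl1, at 59.8 ± 6.45, were the lowest, so that transcripts of the inhibitory-synapse neuroligin lay well above those of the excitatory-synapse neuroligin. Dividing by the longest annotated transcript instead kept 5 of the 9 genes in place, while Nrxn2 moved above Nlgn2 and Nrxn3 above Lrrtm1. The values do not separate splice forms, and the long and short neurexins, which start at different promoters of the same gene, are summed in them.

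**Figure D1:**
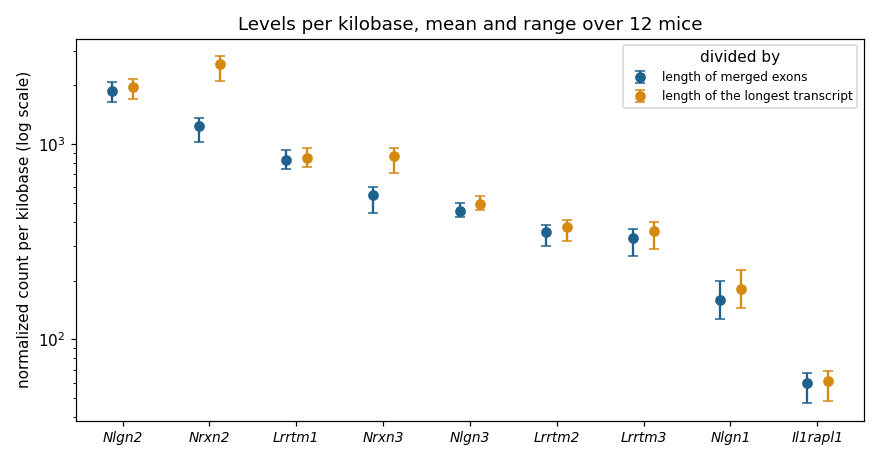
Normalized count per kilobase of the 9 genes on a log axis, with points for the mean and bars for the range over 12 mice, divided either by the length of merged exons or by that of the longest transcript. Nlgn2, Nrxn2 and Lrrtm1 lie at the top with merged exons and Il1rapl1 lies lowest with both lengths, while Nrxn2 and Nrxn3 shift most between the lengths.

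The genes differ widely in size. On GRCm38, Nrxn3 (ENSMUSG00000066392) spans 1612 kb on chr12:88722876-90334935 on the plus strand, Il1rapl1 (ENSMUSG00000052372) spans 1375 kb on chrX:86740870-88115645 on the minus strand, and Nlgn1 (ENSMUSG00000063887) spans 906 kb on chr3:25426215-26332460 on the minus strand. Lrrtm3 (ENSMUSG00000042846) covers 162 kb on chr10:63928472-64090277, minus strand, and Nrxn2 (ENSMUSG00000033768) covers 125 kb on chr19:6418731-6544169, plus strand. By contrast, Nlgn3 (ENSMUSG00000031302) covers 26.8 kb on chrX:101299168-101325963, plus strand, Lrrtm1 (ENSMUSG00000060780) 15.1 kb on chr6:77242689-77257791, plus strand, and Nlgn2 (ENSMUSG00000051790) 14.7 kb on chr11:69823122-69837784, minus strand. Lrrtm2 (ENSMUSG00000071862) is the shortest member, at 6.02 kb. The median protein-coding gene of the table spans 24.6 kb, so 5 of the 9 members are over 100 kb and 1 is under 10 kb.

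The sequence before the start site is shown for the most and the least abundant gene per kilobase, Nlgn2 and Il1rapl1, and for an inner start of Nlgn1, whose values varied with those of Il1rapl1. Each is the 250 bases before a RefSeq start on the gene's own strand, from build GRCm38.p6, and none of these bases is exonic in the GENCODE annotation. Capitals mark each CG pair and each GC box (GGGCGG on either strand).
Nlgn2, chr11:69837785-69838034, minus strand: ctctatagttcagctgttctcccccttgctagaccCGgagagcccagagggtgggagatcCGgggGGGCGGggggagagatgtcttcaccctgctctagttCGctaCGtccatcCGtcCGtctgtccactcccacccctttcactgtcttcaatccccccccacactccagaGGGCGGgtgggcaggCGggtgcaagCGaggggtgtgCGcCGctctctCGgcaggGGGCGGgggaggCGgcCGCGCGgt
Il1rapl1, chrX:88115949-88116198, minus strand: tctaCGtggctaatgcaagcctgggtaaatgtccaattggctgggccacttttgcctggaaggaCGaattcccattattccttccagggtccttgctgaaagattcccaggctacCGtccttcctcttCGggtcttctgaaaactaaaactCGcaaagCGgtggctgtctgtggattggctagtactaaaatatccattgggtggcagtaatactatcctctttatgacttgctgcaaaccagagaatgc
Nlgn1, chr3:26153987-26154236, minus strand: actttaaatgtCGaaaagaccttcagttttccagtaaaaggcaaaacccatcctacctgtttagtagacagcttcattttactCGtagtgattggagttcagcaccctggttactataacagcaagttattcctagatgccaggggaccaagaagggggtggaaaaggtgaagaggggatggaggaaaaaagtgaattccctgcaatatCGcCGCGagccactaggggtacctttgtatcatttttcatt
The Nlgn2 window is 67.6% G and C, holds 18 CG pairs and has 3 GC boxes. The Il1rapl1 and Nlgn1 windows hold 6 and 5 CG pairs, with a GC content of 47.6% and 43.6%, and have no GC box. The window of another Nlgn1 start, further upstream and not shown, holds 9 CG pairs with a GC content of 53.6% and no GC box. All 250 of its bases are exonic in the annotation. The values of Nlgn1 do not separate its starts. Over all 32851 windows of this length in the table the median was 6 CG pairs, and 32.7% held a GC box. None of the 3 windows shown held a TATA box (TATAAA) on either strand, beside 12.4% of all windows. None held an E-box (CACGTG), which was found in 6.02% of all windows, or a cyclic AMP response element (TGACGTCA), found in 1.55%. A match or its absence describes these letters only. RefSeq windows were examined for 6 of the 9 members.

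Of the neurexins, Nrxn2 was the more abundant, and its values did not overlap between the vehicle-treated genotypes. Its normalized counts were 16586, 16077 and 14047 in WT-Veh and 17414, 17420.2 and 18448 in KO-Veh mice. They were 16624, 17093 and 17972 in WT-Mem and 18729, 17042 and 17468 in KO-Mem mice. All KO-Veh mice were above all WT-Veh mice, and WT-Veh replicate 3 was the lowest of the 12, while the WT-Mem values overlapped those of both KO groups. Nrxn3, the second neurexin gene, read 6891, 5926 and 7566 in WT-Veh mice and 6697, 7186 and 6886 in KO-Veh mice. In WT-Mem mice it read 7568, 7413 and 5610.4, and in KO-Mem mice 6952, 6469.6 and 7211. All 4 groups overlapped for Nrxn3, and the widest spread lay within the WT groups, with SDs of 824 and 1088 in WT-Veh and WT-Mem against 247 and 376 in KO-Veh and KO-Mem mice. The ratio of Nrxn2 to Nrxn3 was 2.33 ± 0.43 in WT-Veh against 2.57 ± 0.13 in KO-Veh mice, and with memantine 2.57 ± 0.55 in WT against 2.58 ± 0.14 in KO mice (SD, n = 3 each), so the group means differed by less than the spread in the WT groups.

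Among the neuroligins, Nlgn1, the main form of excitatory synapses, had the largest difference between genotypes when all 12 mice were used. Its values were 2095, 2057 and 1803 in WT-Veh and 2249, 2123 and 2269 in KO-Veh mice. With memantine they were 2135, 2146 and 1709.5 in WT mice and 2662, 2339.7 and 2077 in KO mice. The vehicle groups did not overlap, whereas the memantine groups did, and 4 of the 6 KO mice were above the highest WT mouse. Nlgn2, the neuroligin of inhibitory synapses, stood at 10856, 9772 and 9494 in WT-Veh and at 10805, 11892 and 10743 in KO-Veh mice. In WT-Mem mice it stood at 10909.9, 10908 and 10387 and in KO-Mem mice at 12001, 10650.1 and 11446. Here 3 of the 6 KO mice exceeded the highest WT mouse, and WT-Veh replicate 3 was again the lowest. Nlgn3, found at both kinds of synapse, gave 4303, 3929.6 and 4016 in WT-Veh against 4632, 4164 and 3938 in KO-Veh mice, and with memantine 4319, 4525 and 4142 in WT against 4164, 4029 and 4512 in KO mice. The 4 groups overlapped for Nlgn3, which had the narrowest range of the 9 genes, its highest mouse being 1.18 times its lowest. The ratio of Nlgn2 to Nlgn1 was 5.07 ± 0.28 in WT-Veh and 5.05 ± 0.48 in KO-Veh mice, and 5.42 ± 0.57 in WT-Mem and 4.86 ± 0.57 in KO-Mem mice (SD, n = 3 each), and these values overlapped.

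The LRRTM genes encode postsynaptic neurexin ligands, of which LRRTM1 and LRRTM2 are best known from excitatory synapses. Lrrtm1 read 2572, 2483 and 2275 in WT-Veh against 2539, 2572 and 2259 in KO-Veh mice, and with memantine 2462, 2521 and 2813 in WT against 2407, 2583 and 2648 in KO mice. Lrrtm2 read 2248, 2046 and 1926 in WT-Veh against 2150.0, 2229.6 and 2071 in KO-Veh mice, and with memantine 2293, 2321 and 2019 in WT against 1799, 2251 and 2166 in KO mice. For both genes all groups overlapped, and no KO mouse was above the highest WT mouse. Lrrtm3 was 1494, 1291 and 1130.4 in WT-Veh and 1455, 1439.8 and 1441 in KO-Veh mice. Its values were 1321, 1380.4 and 1386 in WT-Mem and 1358, 1562 and 1553 in KO-Mem mice. The 3 KO-Veh values of Lrrtm3 had an SD of only 8.52 and lay inside the WT-Veh range, whose SD was 182, and all were above the 3 WT-Mem values.

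Il1rapl1 differs from the other members in its partner, since its protein binds the presynaptic receptor phosphatase PTPδ rather than a neurexin. It was the least abundant member, with 594, 504 and 476 normalized counts in WT-Veh and 629.9, 546 and 617 in KO-Veh mice. With memantine it read 590.5, 562 and 441 in WT mice and 625, 577 and 536 in KO mice. The genotypes overlapped under both treatments, and 3 of the 6 KO mice were above the highest WT mouse. Il1rapl1 also had the largest spread within groups, with a pooled SD of 0.16 on the log2 scale. Over the 9 genes this SD went down to 0.08 for Nlgn2, beside a median of 0.10 over 9509 genes whose mean was 400 or more.

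**Figure D2:**
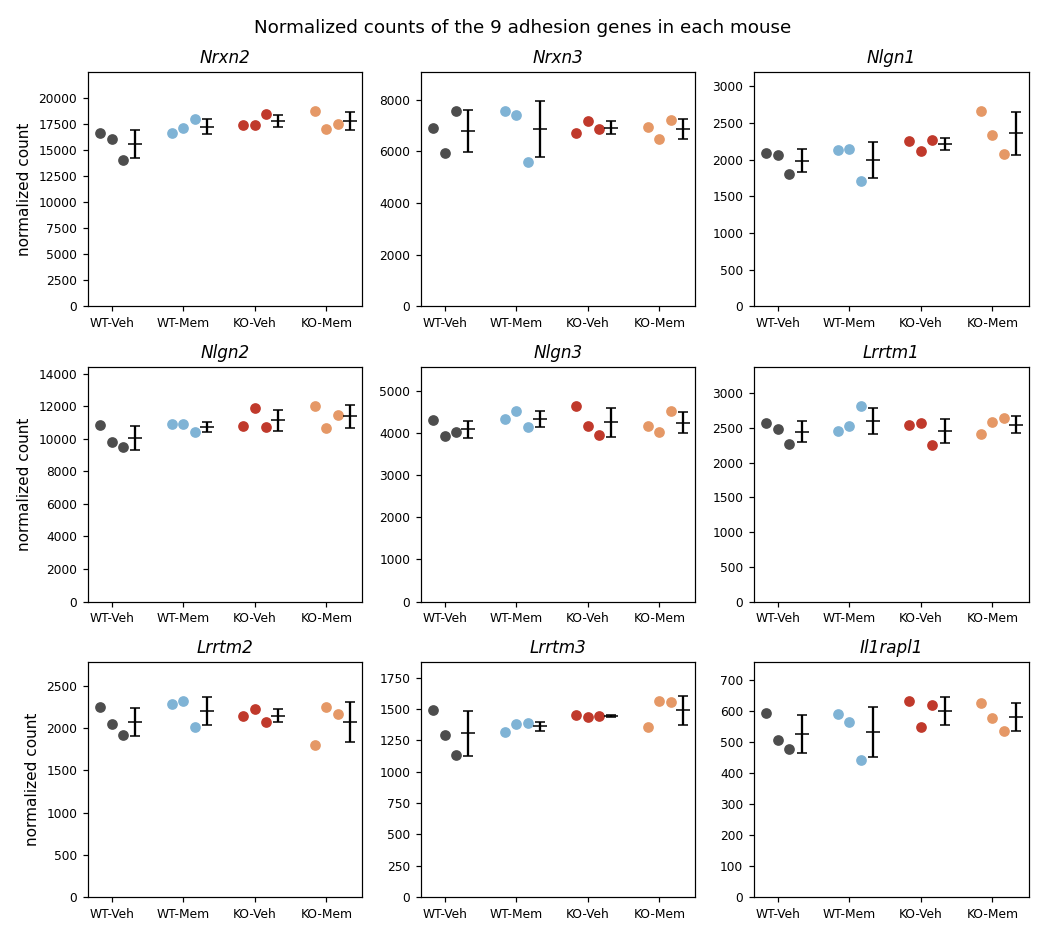
Normalized counts of each gene in every mouse, on linear axes that start at 0, with coloured points for the 3 mice of each group in replicate order and black bars for the group mean ± SD. The KO-Veh points of Nrxn2 and Nlgn1 are all above the WT-Veh points, and the groups overlap in the other panels between these 2 groups.

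Baseline differences between genotypes were examined in Veh-K/W, that is KO-Veh against WT-Veh mice. No member was called at an adjusted p under 0.05 (limma, Benjamini-Hochberg adjustment over 17671 genes), and 0.0283% of all genes were. All 9 fold changes were positive, with a median of 0.15 on the log2 scale beside 0.00 over all genes, of which 50.4% were positive. Of the 74 other adhesion genes listed below, 53 (71.6%) were positive. In fits without 1 mouse the values of Nrxn3, Lrrtm1 and Nlgn3 went down to -0.06, -0.04 and -0.01. On the log2 scale the difference was 0.19 ± 0.07 for Nrxn2 (limma adjusted p = 0.280, ± giving the SE here and in all later differences) and for Nlgn1 it was 0.16 ± 0.07 (adjusted p = 0.365), and in these 2 of the 9 genes the groups did not overlap, beside 20.4% of all genes. The change was 0.19 ± 0.11 for Il1rapl1, 0.16 ± 0.10 for Lrrtm3 and 0.15 ± 0.07 for Nlgn2. Nlgn3, Lrrtm2, Nrxn3 and Lrrtm1 lay between 0.01 and 0.05. At an unadjusted p under 0.05 only Nrxn2 passed in limma, beside 14.4% of all genes. Taken over the 9 genes, the 95% intervals ran from a 0.895-fold to a 1.34-fold level, and 8 of the 9 included a fold of 1.

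Mem-K/W compared KO-Mem with WT-Mem mice, to see how the genotypes differed after treatment. Again no member was called, beside 0.068% of all genes, and none passed at an unadjusted p under 0.05, beside 21.0% of all genes. The share of all genes called rose to 10.8% without KO-Mem replicate 3, again with no member called. The values were positive for 6 genes and negative for 3, with a median of 0.04. Nlgn1 had the largest difference, 0.24 ± 0.11 (limma adjusted p = 0.254), with a 95% interval from -0.01 to 0.49. Il1rapl1 and Lrrtm3 followed at 0.13 each, while Lrrtm2 was at -0.10 ± 0.10. Without WT-Mem replicate 3, Nlgn1 was at 0.13, Lrrtm3 at 0.14, Il1rapl1 at 0.01 and Nrxn3 at -0.12, so that Nlgn1 no longer had the largest difference among the positive values. The groups overlapped in all 9 genes, while 26.2% of all genes had groups that did not overlap.

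The effect of memantine within a genotype was examined in KO-M/V and WT-M/V. In KO mice no member was called, nor was any of 17707 genes (0% called), and 4 members were positive and 5 negative, between -0.06 for Lrrtm2 and 0.09 for Nlgn1. No member's groups were separated in KO-M/V, beside 13.9% of all genes, and the 95% intervals lay between 0.835-fold and 1.22-fold. In WT mice no member was called either (0.0114% of all genes), and all 9 values were positive, from 0.00 for Nlgn1 to 0.15 ± 0.08 for Nrxn2 (limma adjusted p = 0.978). Positive values were also found in 54 of the 74 other adhesion genes listed below (73.0%) and in 50.05% of all genes. Nrxn2 was the 1 member whose WT-Mem mice were all above the WT-Veh mice, beside 9.34% of all genes without overlap. The signs differed with single mice left out. Leaving out WT-Veh replicate 3 brought the median of the 9 genes from 0.08 to 0.04 and Nrxn2 to 0.08, with 3 genes negative, namely Nlgn1, Lrrtm3 and Il1rapl1. Without WT-Mem replicate 1 or 2, Nrxn3, Nlgn1 and Il1rapl1 were negative, and without WT-Veh replicate 2 Nrxn3 and Il1rapl1 were. The intervals of WT-M/V ran from 0.825-fold to 1.25-fold. No member passed at an unadjusted p under 0.05 in either comparison, beside 8.88% of all genes for KO-M/V and 3.97% of all genes for WT-M/V.

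The crosswise comparisons set treated mutants against untreated WT mice and treated WT mice against untreated mutants. In KO-M/WT-V no member was called, and 3.37% of all genes were. That share depended on single mice, being 14.1% without KO-Mem replicate 3, 0.01% without KO-Mem replicate 1 or 2, 0.02% without WT-Veh replicate 2 or 3 and 0.31% without WT-Veh replicate 1. The values were positive for 8 members, with a median of 0.15 over the 9, and 3 passed at an unadjusted p under 0.05, namely Nlgn1 at 0.25 ± 0.10 (limma adjusted p = 0.162), Nrxn2 at 0.19 ± 0.08 (0.152) and Nlgn2 at 0.18 ± 0.07 (0.163), beside 25.9% of all genes. Only Nrxn2 had groups that did not overlap, against 31.1% of all genes. Leaving out KO-Mem replicate 3 called Nlgn1 in KO-M/WT-V (0.33, limma adjusted p = 0.0493), in the fit that called 14.1% of all genes. In WT-M/KO-V no member was called (0.0227% of all genes) and none passed unadjusted, beside 8.94% of all genes. Il1rapl1 had the lowest value there, -0.18 ± 0.12, and Lrrtm3 was the 1 member without overlap, all WT-Mem mice being lower than all KO-Veh mice, beside 14.9% of all genes. Veh-K/W, WT-M/V and KO-M/WT-V all use the same WT-Veh mice, so their values for the members are not independent of each other.

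**Figure D3:**
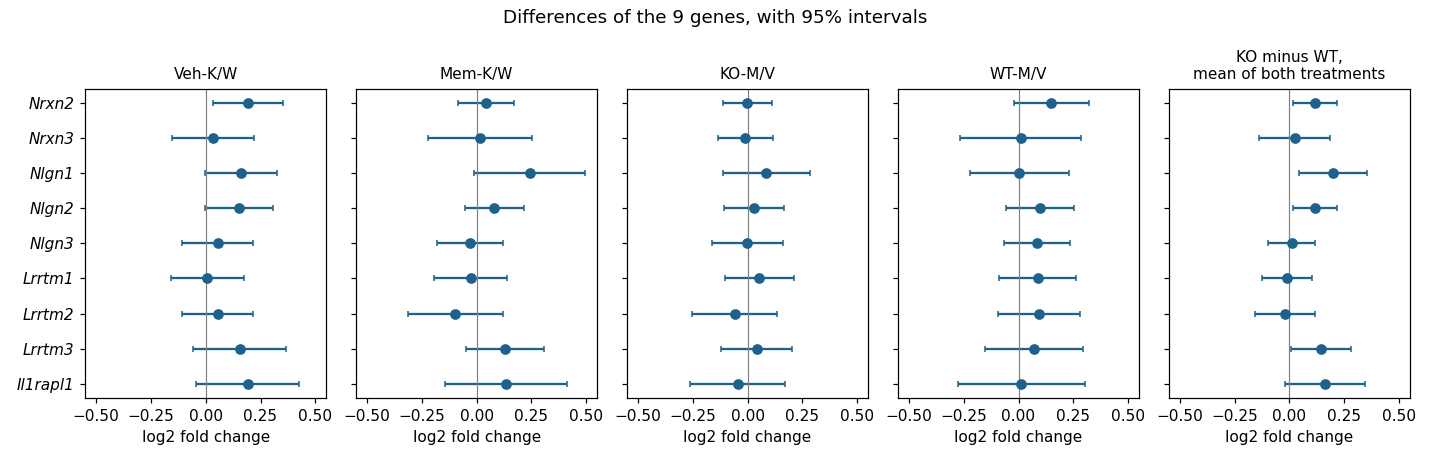
Log2 fold change of each gene (points) with its 95% interval (bars) between genotypes under vehicle (Veh-K/W) and memantine (Mem-K/W), between treatments in KO and in WT mice (KO-M/V and, beside it, WT-M/V), and for KO against WT mice averaged over both treatments. Most intervals include 0, and in the averaged panel those of Nrxn2, Nlgn1, Nlgn2 and Lrrtm3 lie above it before adjustment for the number of genes tested.

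With all 12 mice in a single fit, the genotype difference was averaged over both treatments. No member was called (smallest adjusted p = 0.0858, for Nlgn1), and 10.5% of all 17655 genes were. That share ran from 2.99% without KO-Veh replicate 3 to 18.5% without KO-Mem replicate 3. It was 4.42% without WT-Veh replicate 2, 5.51% without WT-Mem replicate 1, 6.59% without WT-Mem replicate 3, 5.11% without KO-Veh replicate 1, and 3.54% and 4.27% without KO-Mem replicate 1 and 2. Nlgn1 was 1.15-fold in KO relative to WT mice, or 0.20 ± 0.07 on the log2 scale with a 95% interval from 0.05 to 0.36. At an unadjusted p under 0.05, 4 members passed, namely Nlgn1, Nrxn2 (0.12 ± 0.05), Nlgn2 (0.12 ± 0.05) and Lrrtm3 (0.14 ± 0.06), beside 29.4% of all genes. Il1rapl1 was at 0.16 ± 0.09, and Nrxn3, Nlgn3, Lrrtm1 and Lrrtm2 were between -0.02 and 0.02. In no member were all 6 KO mice apart from all 6 WT mice, which was the case for 4.06% of all genes. Leaving out KO-Mem replicate 3 called Nlgn1 (0.24, limma adjusted p = 0.0282), in the fit that called 18.5% of all genes. Leaving out WT-Veh replicate 1 called Lrrtm3 (0.19, limma adjusted p = 0.0494) with 9.5% of all genes.

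The treatment difference averaged over genotypes gave no called member and no called gene (0%), and values from -0.02 for Il1rapl1 to 0.07 for Nrxn2. None of the members passed at an unadjusted p under 0.05 or had separated groups, and 0.17% of all genes had. The genotype by treatment interaction, which asks whether memantine acted differently in the 2 genotypes, was negative for 8 of the 9 genes and positive for Nlgn1 (0.08 ± 0.14). Of all genes 48.9% were positive, and 50 of the 74 other adhesion genes listed below were negative. The signs of Nlgn1, Nrxn3, Lrrtm1, Lrrtm3 and Il1rapl1 changed in fits without 1 mouse. The interaction was not called for any member or any other gene (0%), and no member passed it unadjusted. The lowest interaction values were -0.15 ± 0.13 for Lrrtm2 and -0.15 ± 0.09 for Nrxn2 (limma adjusted p = 0.948 for both). The standard errors of the interaction were 0.09 to 0.17 over the 9 genes.

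The median of the 9 genes in Veh-K/W, 0.15, changed when single mice of either genotype were left out. It was 0.09 without WT-Veh replicate 3, 0.13 without WT-Veh replicate 2 and 0.20 without WT-Veh replicate 1. Among KO-Veh mice, leaving out replicate 2 gave 0.10, replicate 1 gave 0.15 and replicate 3 gave 0.14. For each mouse, the deviation of the 9 genes from their 12-mouse means was averaged on the log2 scale. It was -0.16 in WT-Veh replicate 3, -0.10 in WT-Veh replicate 2 and -0.09 in WT-Mem replicate 3, and between 0.01 and 0.06 in the other 9 mice. The same 3 mice had raised values of short protein-coding genes and lowered values of long ones. The median deviation of 3582 protein-coding genes under 10 kb was 0.09, 0.05 and 0.11 in these mice in the same order. The median of 2314 genes over 100 kb was -0.07, -0.02 and -0.08. The summed oligodendrocyte markers were also highest in WT-Veh replicate 3, and the summed neuron markers lowest, at 123420.0 against up to 140370.0. In WT-Mem replicate 3 the neuron sum was 137970.0, the lowest of its group, which reached 139880.0, yet above the highest KO mouse at 136580.0. Its oligodendrocyte sum, 322260.0, was the highest of its group. The part that these features have in the members' values was not tested.

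**Figure D4:**
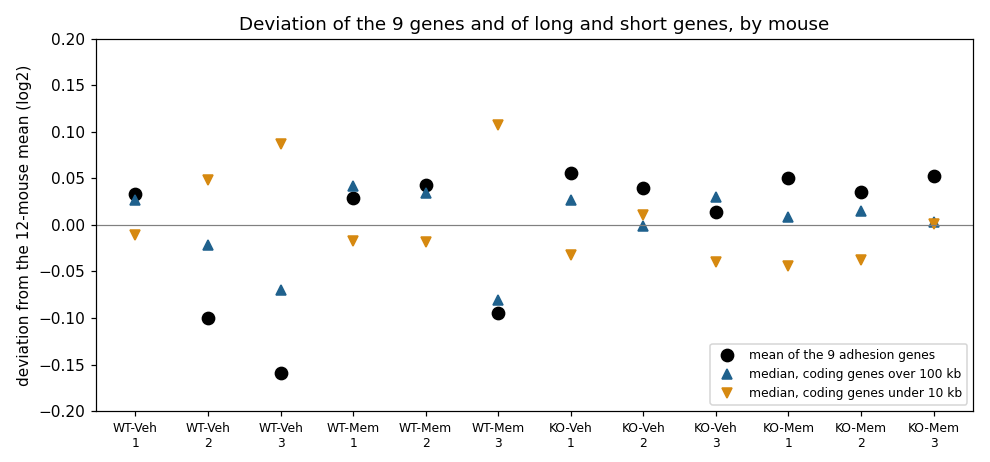
Deviation from the 12-mouse mean on the log2 scale for each mouse, as the mean of the 9 adhesion genes (circles), the median of protein-coding genes over 100 kb (upward triangles) and the median of those under 10 kb (downward triangles). In WT-Veh replicates 2 and 3 and WT-Mem replicate 3 the adhesion genes and the long genes are below 0 and the short genes above it.

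Without WT-Veh replicate 3 and WT-Mem replicate 3, an alternative chosen after the data were seen, the median of the 9 genes in Veh-K/W was 0.09 rather than 0.15, and 8 of the 9 values stayed positive. Nrxn2 was then at 0.12, Nlgn1 at 0.09 and Il1rapl1 at 0.12, and Lrrtm1 was at -0.04. In the averaged genotype comparison, Nlgn1 was at 0.11 (limma adjusted p = 0.268) in place of 0.20, Il1rapl1 at 0.07 in place of 0.16, and Nrxn2 at 0.10 (0.117). No member was called. Without KO-Veh replicate 3, the mouse with the high cerebellar markers, the Veh-K/W median of the members was 0.14.

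Several members share their locus with another gene, and the library kit did not mark strand, so reads of overlapping exons on opposite strands cannot be told apart. Each LRRTM gene lies inside an α-catenin gene on the opposite strand, Lrrtm1 in Ctnna2, Lrrtm2 in Ctnna1 and Lrrtm3 in Ctnna3. Only for Lrrtm2 do the exons overlap. In KO-Mem replicate 1 both Lrrtm2 (1799 normalized counts) and Ctnna1 (1572) were at their lowest of the 12 mice. Nrxn2 overlaps exons of Gm14964 and Slc22a12 on the opposite strand, which reached at most 51.1 and 16.4 normalized counts. Nlgn1 overlaps the antisense transcript A830092H15Rik, at most 82.6 units, and Nlgn3 overlaps Gm21986 on the same strand, which lay between 297 and 546 units. The overlapping transcripts of Nrxn2 and Nlgn1 were thus far below the members, while Ctnna1 was at about the level of Lrrtm2.

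Across the 12 mice some members varied together after the group means were removed. The closest pair was Nlgn1 and Il1rapl1 (Pearson r = 0.885, 12 mice, 36 pairs examined), followed by Lrrtm2 and Lrrtm3 (0.709) and Lrrtm1 and Lrrtm3 (0.655). Nlgn1 and Il1rapl1 are both very long genes of low level per kilobase. Over all pairs the median r was 0.283, and 29 of 36 were positive. The lowest values were those of Nrxn3 with Lrrtm1 (-0.559) and of Nrxn2 with Nrxn3 (-0.510). These correlations are descriptions, since the values share libraries, normalization and the features of single mice given above.

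The gene whose pattern was most like that of each member was also recorded, as the highest Pearson r of log2 values over the 12 mice among 12876 genes with a mean of at least 100. For Nrxn2 this was Gphn (r = 0.946), which encodes gephyrin, the scaffold of inhibitory synapses, and Pcna came second (0.928). Nlgn1 was nearest to Nr2c2 (0.971) and to Cdh4 (0.969), which encodes a classical cadherin. Nlgn2 was nearest to Rfx7 (0.944) and to the kainate receptor subunit gene Grik5 (0.926), and Il1rapl1 to Prrc2b and Taok1 (0.955 each). The nearest gene was Zfp382 for Nrxn3 (0.936), Zfp141 for Nlgn3 (0.851), Tram1l1 for Lrrtm1 (0.913), Slc35f3 for Lrrtm2 (0.897) and Tmem200a for Lrrtm3 (0.899). Second for these members, in the same order, were Zfp62 (0.887), Smpd3 (0.851), Slc25a3 (0.886), Xpr1 (0.894) and Rnf217 (0.887). A maximum over so many genes is high by selection, and no member had another member as its nearest gene.

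Other genes of synaptic adhesion were examined in 7 lists, with 74 genes in the table. They hold further neurexin ligands such as cerebellins and neurexophilins, the LAR-type phosphatases and their ligands, netrin-G ligands, latrophilins with their FLRT and teneurin partners, other adhesion genes, modulators of the neurexin-neuroligin complex, and intracellular partners. In the averaged genotype comparison 4 of the 74 (5.41%) were called, beside 10.5% of all genes, with 1 higher and 3 lower in KO mice. Igsf9b, which encodes an adhesion protein of inhibitory synapses, was lower in KO mice (-0.31 ± 0.07 in log2, limma adjusted p = 0.0185). Its normalized counts were 4677 ± 61.0 in WT-Veh against 3891 ± 295 in KO-Veh mice, and with memantine 4423 ± 657 in WT against 3446 ± 341 in KO mice (SD, n = 3 each). Lin7b, a small scaffold protein of the complex that binds neurexins through CASK, was lower as well (-0.30 ± 0.07, limma adjusted p = 0.0230). Its group means were 1253 ± 60.8 and 1360 ± 148 in WT-Veh and WT-Mem against 1119 ± 80.7 and 1001 ± 144 in KO-Veh and KO-Mem mice, and no KO mouse reached the lowest WT mouse.

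Khdrbs3 encodes SLM2, an RNA-binding protein that regulates alternative splicing of neurexins. It was lower in KO mice (-0.17 ± 0.05, limma adjusted p = 0.0350), from 3249 ± 247 and 3186 ± 88.6 in WT-Veh and WT-Mem to 2905 ± 99.0 and 2816 ± 129 in KO-Veh and KO-Mem mice, without overlap. Lrrtm4, the fourth LRRTM gene and a neurexin and glypican ligand, was higher (0.20 ± 0.06, limma adjusted p = 0.0404). Its group means were 902 ± 84.9 and 894 ± 48.5 in WT against 1018 ± 37.6 and 1041 ± 42.0 in KO mice. The genotypes did not overlap, with the highest WT mouse at 980 and the lowest KO mouse at 988. In the averaged genotype comparison 4 of the 74 genes (5.41%) had no overlap, beside 4.06% of all genes. They were Lin7b, Khdrbs3, Lrrtm4 and Apba1, the last of which was not called. Leaving out each of the 12 mice in turn lost the call of Igsf9b in 2 fits (without KO-Veh replicate 3 or KO-Mem replicate 1), and of Lin7b in 5 (without WT-Veh replicate 2, KO-Veh replicate 1 or 3, or KO-Mem replicate 1 or 2). That of Khdrbs3 was lost in 9 fits and kept without WT-Veh replicate 1 or 3 or KO-Mem replicate 3, and that of Lrrtm4 was lost in 10 and kept without WT-Veh replicate 1 or KO-Mem replicate 3. The fold changes of these fits stayed between -0.37 and -0.27 for Igsf9b, -0.36 and -0.26 for Lin7b, -0.19 and -0.14 for Khdrbs3, and 0.16 and 0.23 for Lrrtm4. The largest adjusted p among these fits was 0.0566, 0.0637, 0.0877 and 0.104 for Igsf9b, Lin7b, Khdrbs3 and Lrrtm4. All 4 calls were lost without KO-Veh replicate 3, the mouse with the high cerebellar markers, and likewise without KO-Mem replicate 1. They were also lost without the trend in the prior variance, at the same fold changes, with limma adjusted p from 0.0598 to 0.0730.

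**Figure D5:**
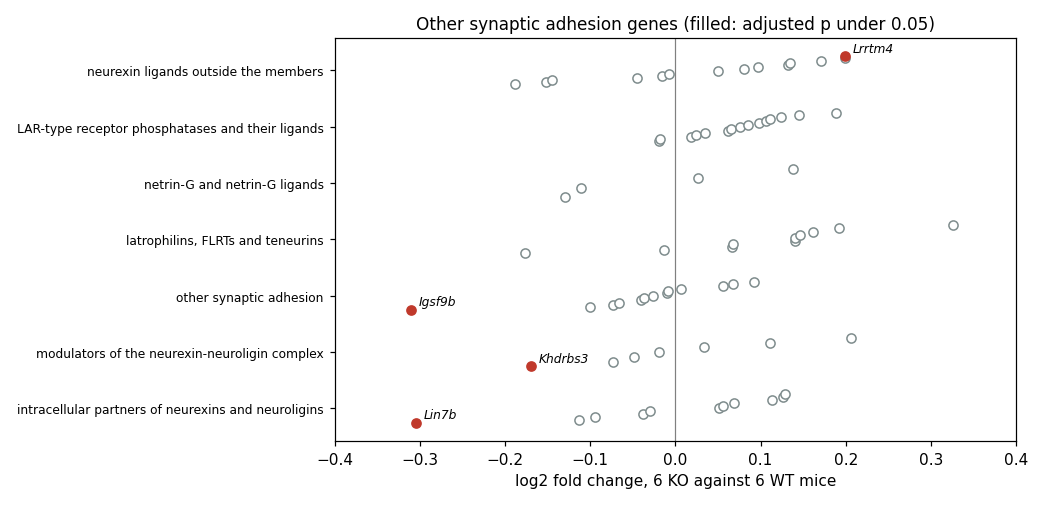
Log2 fold change of the 74 other synaptic adhesion genes between 6 KO and 6 WT mice, averaged over treatment, with 1 row of points for each list and filled points for genes with an adjusted p under 0.05. The 4 filled points are Lrrtm4 to the right and Igsf9b, Khdrbs3 and Lin7b to the left, and 13 of the 15 genes of the LAR-type list lie above 0.

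By list, the values of the averaged comparison were mostly positive for the LAR-type phosphatases and their ligands (13 of 15, median 0.08) and for latrophilins, FLRTs and teneurins (8 of 10, median 0.14), beside 50.9% of all genes, but no gene of these lists was called. In the list of other synaptic adhesion genes 9 of 13 were negative (median -0.03), and of the modulators 4 of 7 were. In the first list, which holds the partners of Il1rapl1, the 3 genes of smallest unadjusted p were Slitrk5 (0.12), Slitrk3 (0.11) and Slitrk1 (0.10). In the second they were Adgrl2 (0.15 ± 0.05, limma adjusted p = 0.0549), Tenm1 (0.33 ± 0.10, 0.0594) and Tenm2 (0.19 ± 0.08). Among the neurexin ligands, Nxph1 was at 0.20 ± 0.07 and Igsf21 at -0.15 ± 0.05, neither of them called. Mdga2, whose product blocks neuroligins from binding neurexins, was at 0.21 ± 0.07 (adjusted p = 0.0780). Of the netrin-G group, Lrrc4c was at 0.14 ± 0.05, Ntng1 at -0.13 ± 0.05 and Ntng2 at -0.11 ± 0.06. Of the intracellular partners, Apba1, which encodes Mint1, was at -0.09 ± 0.03, and Magi2, which encodes a scaffold of both kinds of synapse, at 0.13 ± 0.05.

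In the other comparisons the wider lists gave a single call, Igsf9b in KO-M/WT-V (-0.45, limma adjusted p = 0.0305), which is 1.35% of the 74 genes beside 3.37% of all genes. It was lost in 5 of the 6 fits that left out a mouse, the exception being the fit without KO-Mem replicate 3. At an unadjusted p under 0.05, 11 of the 74 passed in Veh-K/W beside 14.4% of all genes, 12 in Mem-K/W beside 21.0%, and 14 in KO-M/WT-V beside 25.9%. In KO-M/V 4 passed beside 8.88% of all genes, in WT-M/V 0 beside 3.97%, and in WT-M/KO-V 3 beside 8.94%. As shares of the 74, the first 3 counts are 14.9% in Veh-K/W, 16.2% in Mem-K/W and 18.9% in KO-M/WT-V. The median log2 fold change of the 74 genes was 0.06 in Veh-K/W and 0.01 in Mem-K/W, beside 0.00 over all genes in both.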

How the data were processed

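RNA of 12 mice was sequenced in paired ends from poly(A) libraries (TruSeq v2, which does not mark strand). The authors estimated transcript abundances with Salmon 1.1.0 on GRCm38, summed them to genes with tximport and normalized them with DESeq2 1.26.0 in R 3.6.2, as the submitters' processing notes give. The deposited values are a signal, namely normalized counts that are neither whole nor logged, for 19312 genes and 12 columns, all of which were mapped to mice by the labels. Their sums, from 30373849 to 31199251 per mouse, are not depths; relative depth, read from the spacing of low values, was 0.89 to 1.15. Whole reads could not be recovered, so no count test was run.

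Genes with a mean of at least 10 over the mice of a fit were tested with limma 3.58.1 (R 4.3.3) on log2(value + 1), with a trend in the prior variance, and Benjamini-Hochberg adjustment of p-values covered every gene tested. A gene with an adjusted p under 0.05 was called. Fold changes are on this log2 scale, which slightly understates changes of low genes. Pairwise comparisons used their own 6 mice, and the averaged differences and the interaction all 12. Brains were not pooled, and nothing in the labels says which mice shared a litter. The fit of each comparison was run on simulated data whose changes were far larger than the members' differences. That check does not show whether differences of the members' size would be found. Gene positions, lengths and overlaps came from GENCODE M21, which matched 19295 genes, and start-site windows from RefSeq. Levels per kilobase divide the value by exon length. The 9 genes were named in every comparison, with each called gene of the other lists or up to 3 per list of smallest p, of which some are given. The 2 genes most like each member were also named. The members and lists were chosen with earlier results of these data known. Cell type markers were used as sums beside the results.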

Additional observations from a re-analysis of the deposited data

How the results depend on the processing

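No member was called with a pseudocount of 5, with no filter or one at a mean of 50, after rescaling by the median ratio, without the trend, or with all 12 mice in each fit. Leaving out 1 mouse gave 0 to 1 called members in KO-M/WT-V and in the averaged genotype comparison, and none in the other 7 comparisons. For the 74 other adhesion genes, leaving out 1 mouse gave 0 to 3 calls in Mem-K/W, 0 to 5 in KO-M/WT-V and 0 to 8 in the averaged genotype comparison. Each maximum was reached without KO-Mem replicate 3, where 10.8%, 14.1% and 18.5% of all genes were called, in the same order. With all 12 mice in each fit the other adhesion genes had 1 call in Mem-K/W, beside 3.6% of all genes, and 3 in KO-M/WT-V, beside 11.7%. Without the trend the other adhesion genes had 0 calls in KO-M/WT-V, beside 0.04% of all genes, and 0 in the averaged genotype comparison, beside 3.79%. Leaving out WT-Veh replicate 3 and WT-Mem replicate 3 was chosen after the data were seen. The other adhesion genes then had 0 calls in KO-M/WT-V, in place of 1, and 5 in the averaged genotype comparison, in place of 4. Of all genes, 4 of 17636 were called in KO-M/WT-V, in place of 595. In the averaged genotype comparison 911 of 17660 were called, in place of 1856. The cause was not tested.

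Replicate numbers did not pair the mice, since 1 of 18 same-numbered pairs had a correlation of deviations above 0.1 (range -0.33 to 0.22) and 2 of 12 mice correlated best with their own number. With a replicate block, 1 member was called in the averaged genotype comparison (Nlgn1, 0.20, limma adjusted p = 0.0475, with 9.79% of all genes called). The 74 other adhesion genes then had 2 calls in KO-M/WT-V, beside 5.66% of all genes.

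The sign of a member's value changed in 84 of 648 values from fits without 1 mouse (main size at most 0.10), in 12 of 72 from fits without the 2 WT mice, and in 1 of 81 after rescaling. None of these values was called.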
